A study of Mus musculus with 10 samples.

Results

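The enzymes described here are the 38 genes of nucleotide and one-carbon synthesis listed for this study: they make purine and pyrimidine nucleotides, turn them into the deoxynucleotides of DNA, and supply the serine-derived carbon units that both pathways use. The members were chosen by gene symbol and not by a measured value, although earlier results of these data were known at that time. For each gene 1 probe set was used, the brightest by its mean log2 signal on the 10 arrays. Of the 38 genes, 37 had a probe set assigned to them alone, out of 18193 such genes on the array, and Impdh2, which had none, was not analysed here. RNA had been measured on 10 Affymetrix MOE430_2 arrays, on which each gene is read by 1 or more sets of short probes near its 3′ end.

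The first group was 3 arrays of splenic NK cells of wild type C57Bl/6 mice, sorted as NK1.1+CD3- and then cultured for 24 h with recombinant mouse IL-15 (rmIL-15) at 100 ng/mL (IL-15 NK). The second was 3 arrays of NK cells sorted in the same way and lysed at once (resting NK). The third was 4 chips of resting bulk splenocytes, made from 2 biological samples, for which neither strain nor the pairing of chips is given in the sources used here. NK cells cultured without IL-15 were not part of the design, so the effect of IL-15 and that of a day in culture cannot be told apart. The number and age of the mice behind a sample are not given either, so the spread between arrays may be partly technical.

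Nucleotides are made by long chains of enzymes that start from simple precursors, or are salvaged from free bases and nucleosides. Resting lymphocytes rely largely on salvage and keep small pools, and cells that enter the cell cycle need new RNA and, in S phase, a supply of the 4 DNA precursors. Folate-bound one-carbon units, taken mostly from serine, provide carbons of the purine ring and the methyl group that turns dUMP into dTMP. IL-15 is the cytokine on which NK cells depend for survival and which drives their growth and division.

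Signals are in the units of the deposited table, in which every array had been scaled to the same trimmed mean, so they are relative levels and hide any change in total RNA per cell. A floor of 179.8 units, near the 40th percentile of each array, was used before taking log2. In the array-wide fit (limma, with p-values adjusted by Benjamini and Hochberg's method across the tested genes and a threshold of 0.05), 30 of the 37 measured enzymes were higher in IL-15 NK cells than at rest and 2 were lower, where 14.2% of all 11433 genes tested were called higher and 12.1% were called lower. The median difference of the 37 was 1.59 on the log2 scale, beside a median of -0.09 over all genes tested. At least a 2-fold increase was seen for 29 of the 30, the exception being Nme2. The mean of IL-15 NK cells was the highest of the 3 groups for 34 of the 37 enzymes on their brightest probe sets. Some of the margins over splenocytes were small and did not pass, as for Psph (0.02) and Adk (0.12). The same count over all genes was not made, and splenocytes had been amplified by another procedure than NK cells.

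**Figure D1:**
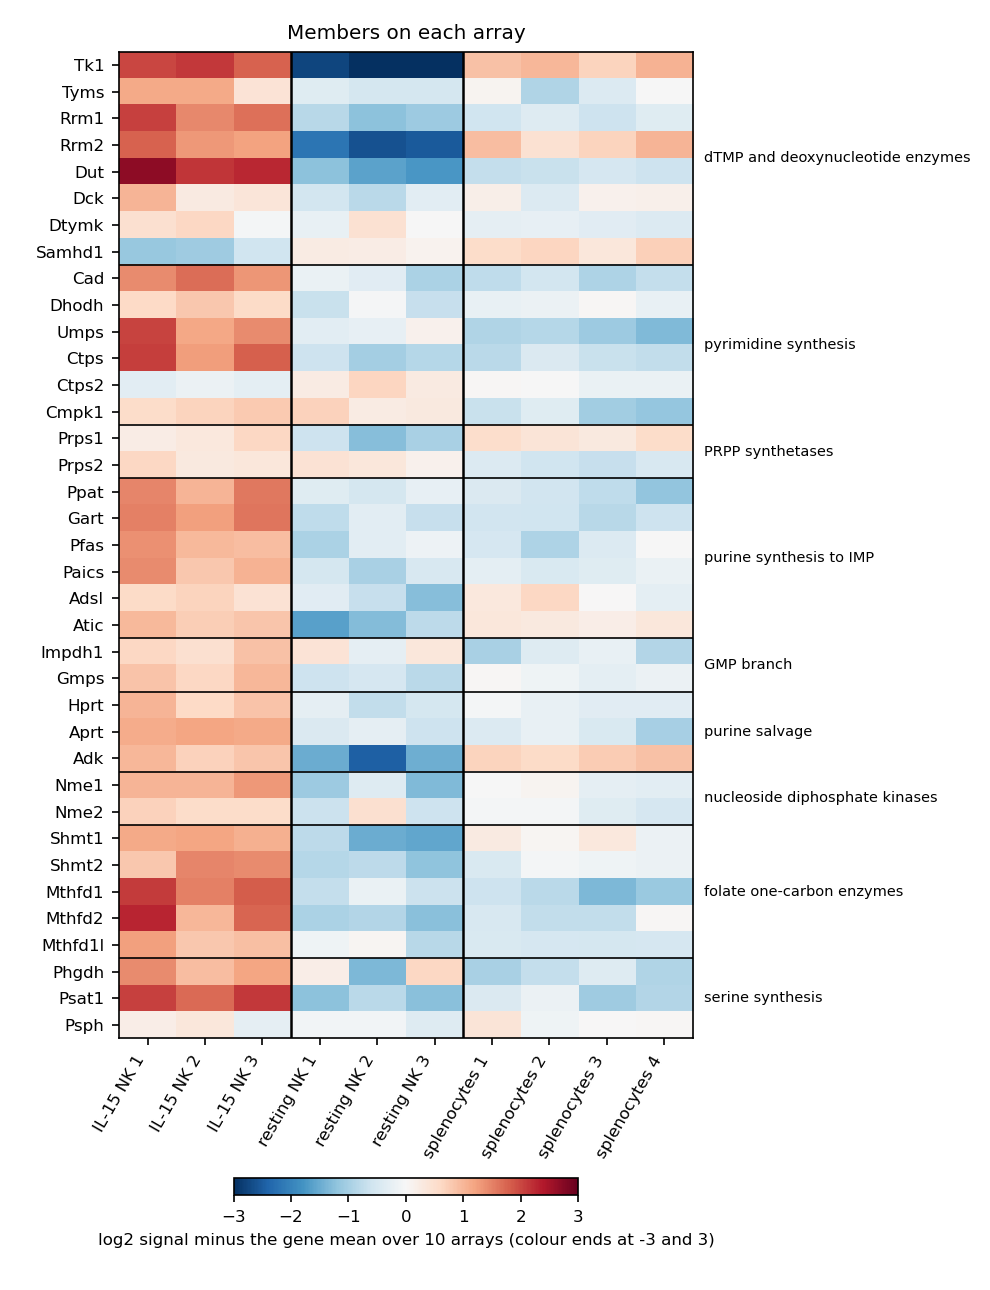
Heat map of the 37 measured enzymes (rows, grouped by role) on the 10 arrays (columns). Colour gives the log2 signal minus the mean of that gene over all arrays, with signals below the floor set to it; most rows are red on the 3 IL-15 NK arrays, while Samhd1 and Ctps2 are blue or pale there, and Tk1 and Rrm2 are darkest blue on the 3 resting NK arrays.

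The enzymes that make thymidylate and balance the deoxynucleotide pools held the largest increases. Of 8, 6 were higher in IL-15 NK cells, 1 was lower and 1 did not pass. Tk1, the cytosolic thymidine kinase of dividing cells, had signals of 7522, 8116 and 6420.2 on the IL-15 NK arrays, against 279, 128 and 181 on the resting NK arrays. Resting cells were therefore at or near the floor, with 2 of 3 arrays above it, and Tk1 was at least 35.1-fold higher with IL-15 (log2 difference 5.13 ± 0.27 SE, adjusted p = 7.03e-06).

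Ribonucleotide reductase converts ribonucleotides to deoxyribonucleotides and is built of a large subunit, Rrm1, and a small one, Rrm2, whose amount is tied to S phase. Rrm2 reached 41088, 29629 and 27864 in IL-15 NK cells, against 2635, 1980.5 and 2108 in resting NK cells, a 14.6-fold difference (adjusted p = 7.03e-06). Rrm1 measured 31591, 20656 and 24223 in IL-15 NK cells, against 4276, 3263 and 3616 in resting NK cells, or 6.79-fold (adjusted p = 2.11e-05). Neither subunit had overlapping groups. The difference of Rrm2 was 3.86 ± 0.21 and that of Rrm1 was 2.76 ± 0.20 on the log2 scale.

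Dut, which hydrolyses dUTP so that uracil stays out of DNA and leaves dUMP for thymidylate synthesis, rose 14.9-fold. Its signals were 34622, 23979.9 and 25704 in IL-15 NK cells and 2296, 1767 and 1595 in resting NK cells (log2 difference 3.90 ± 0.21, adjusted p = 7.03e-06). A second, separately fitted probe set of Dut gave 0.75 (adjusted p = 0.0662), so the size of this increase differed between probe sets. Tyms, the thymidylate synthase itself, was dim, at 1105, 1115 and 669 in IL-15 NK cells against 390.3, 349.5 and 349 in resting NK cells, and was 2.59-fold higher (adjusted p = 0.00773). The call for Tyms was lost when all its probe sets were averaged (adjusted p = 0.0847) and when no filter on dim genes was used (0.0575).

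Dck, the salvage kinase for deoxycytidine and purine deoxynucleosides, measured 40001, 23604 and 25534 in IL-15 NK cells, against 13420.5, 11244 and 15778 in resting NK cells (2.16-fold, adjusted p = 0.00576, or 0.0729 with no filter on dim genes). Dtymk, which phosphorylates dTMP, did not pass, with 15598, 17107 and 10672 in IL-15 NK cells, overlapping 9431, 15274 and 10937 in resting NK cells. Its difference was 0.28 ± 0.24 on the brightest probe set, while another of its probe sets was called higher at 1.88 (adjusted p = 0.000513).

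Samhd1 works in the opposite sense, since it degrades deoxynucleotides and keeps their pools low in cells that are not dividing. It was lower in IL-15 NK cells, at 6145, 6436 and 9030.1, against 16026, 15779 and 14569.7 in resting NK cells, a 2.18-fold difference (log2 difference -1.12 ± 0.19, adjusted p = 0.00199). All 5 probe sets of Samhd1 were called lower when fitted singly, with log2 differences between -3.85 and -1.12. Samhd1 is also abundant in myeloid cells, and 5 of the 6 tested macrophage and monocyte markers were lower in IL-15 NK cells. The summed signal of the 9 such markers on the array was 1166 to 1864 on IL-15 NK arrays, where 2 or 3 of the 9 were above the floor, against 6119.9, 19824 and 27065 on resting NK arrays, where 7 were. Samhd1 stayed between 14569.7 and 16026 on those same resting arrays. The part of the markers in the result was not tested.

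Markers of dividing cells moved with this group of enzymes. All 7 on the array, among them Mki67, Top2a and Cdk1, were higher in IL-15 NK cells than in resting ones, with a median log2 difference of 3.68. Their summed signal was 56264 to 78715 on IL-15 NK arrays, 5719.7 to 10039 on resting NK arrays and 76056 to 106309 on splenocyte chips. In samples of mixed cell states, fewer cells of a state and less RNA per cell cannot be told apart, and the part of the share of cycling cells in these differences was not tested.

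**Figure D2:**
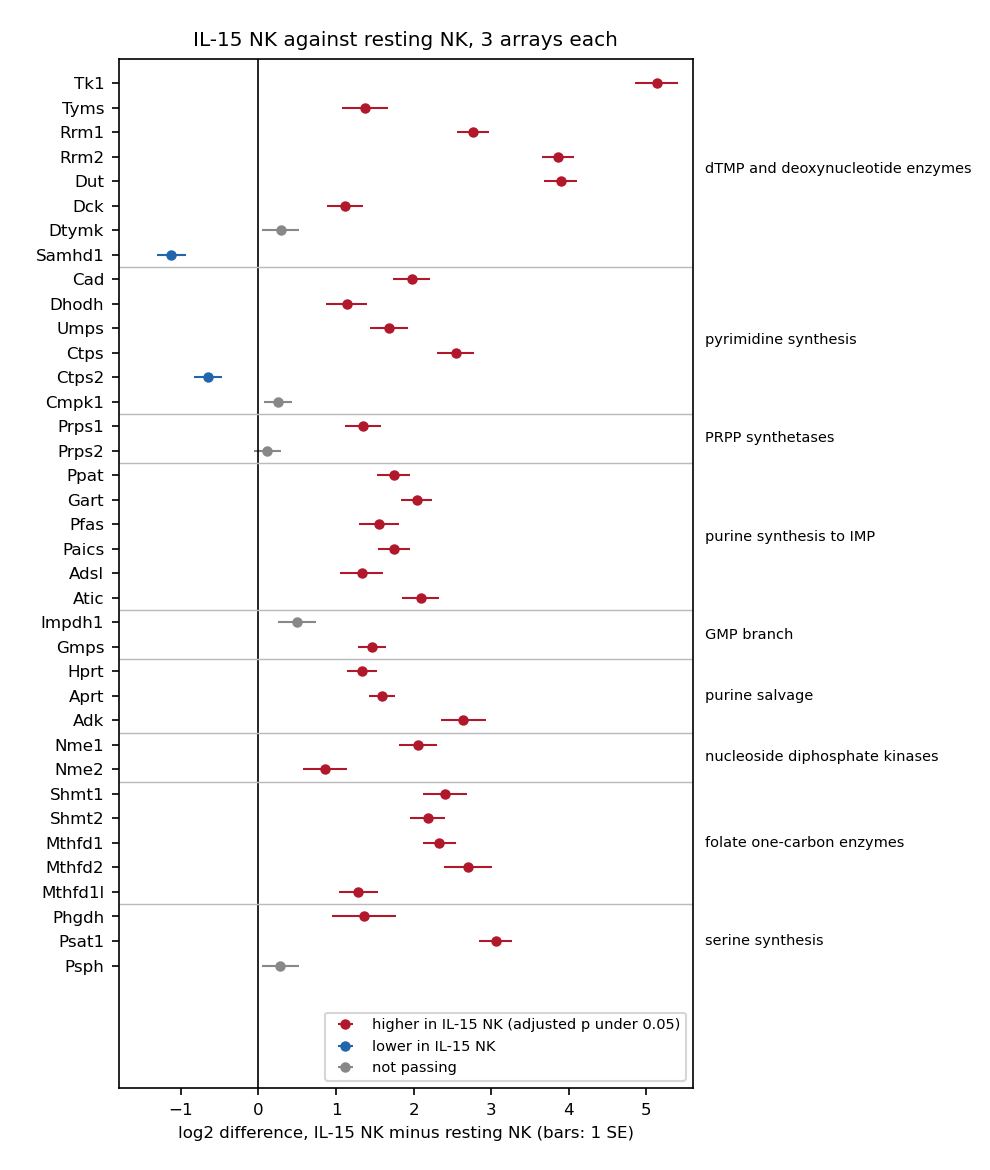
Log2 difference of each enzyme, IL-15 NK minus resting NK (x axis), by role (rows), with bars of 1 SE from the array-wide fit on 3 arrays in each group. Red points passed as higher, blue as lower and grey did not pass; Tk1 lies farthest right at 5.13, a lower bound, and Samhd1 and Ctps2 lie left of 0.

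Pyrimidine synthesis from scratch begins with Cad, a single long protein that carries the first 3 activities, continues with the mitochondrial Dhodh and ends at UMP with Umps. All of these rose. Cad measured 6879.8, 8183 and 6461 in IL-15 NK cells, against 2231, 2029 and 1319 in resting NK cells (3.93-fold, adjusted p = 0.000312). Umps measured 14515, 8003 and 9648 in IL-15 NK cells, against 2880.2, 3002 and 3946 in resting NK cells (3.2-fold, adjusted p = 0.000902). Dhodh rose by 1.14 ± 0.26 on the log2 scale, with 2264, 2616 and 2231 in IL-15 NK cells and 929.6, 1459 and 919 in resting NK cells (adjusted p = 0.0101).

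CTP is made from UTP by a pair of synthases, and these moved in opposite directions. Ctps rose 5.82-fold, to 15933, 9022 and 12938 in IL-15 NK cells, against 2447, 1866 and 2067 in resting NK cells (log2 difference 2.54 ± 0.23, adjusted p = 6.83e-05). Ctps2 fell to 4975, 5486 and 5073 in IL-15 NK cells, against 7404, 9697 and 7409 in resting NK cells (log2 difference -0.65 ± 0.18, adjusted p = 0.0245). The fall of Ctps2 was small and did not pass without IL-15 NK replicate 1 (adjusted p = 0.0793), IL-15 NK replicate 3 (0.0862) or resting NK replicate 2 (0.055), although the log2 difference stayed between -0.71 and -0.52. Cmpk1, which phosphorylates UMP and CMP, had a difference of 0.25 ± 0.18 and did not pass (adjusted p = 0.335), with 26444, 28738 and 30986 in IL-15 NK cells overlapping 29270.2, 21254 and 22293 in resting NK cells.

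PRPP, the activated ribose that both pathways and salvage consume, comes from Prps1 and Prps2. Prps1 was 2.54-fold higher in IL-15 NK cells, at 4052, 4287 and 5285, against 2233, 1429.7 and 1757 in resting NK cells (adjusted p = 0.00226). Prps2 measured 27010.5, 21523 and 22319.5 in IL-15 NK cells and 23884, 22091 and 19328 in resting NK cells, groups that overlapped (log2 difference 0.12 ± 0.17, adjusted p = 0.665). A dimmer probe set of Prps2 was called higher at 1.29 (adjusted p = 0.0101) and the mean of its probe sets passed at 0.61 (0.0418), so a rise of Prps2 depended on the probe set read.

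The 6 enzymes of purine synthesis up to IMP were all higher in IL-15 NK cells, with log2 differences from 1.33 to 2.09. Ppat carries out the committed step and measured 8354, 6096 and 9051 in IL-15 NK cells, against 2351, 2076 and 2526 in resting NK cells (3.34-fold, adjusted p = 0.000312). Gart, with 3 activities in 1 protein, measured 12519, 10248 and 13278 in IL-15 NK cells, against 2554, 3521 and 2724 in resting NK cells (4.11-fold, adjusted p = 8.66e-05). Their groups did not overlap, and the lowest IL-15 NK array was more than double the highest resting array for both.

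Pfas, which makes the formylglycinamidine intermediate, had 5691, 4283 and 4135 in IL-15 NK cells and 1144, 1762 and 1966 in resting NK cells (2.94-fold, adjusted p = 0.00178). Paics, the next bifunctional enzyme, was among the brightest signals of the set at 46839, 30849.7 and 36024 in IL-15 NK cells, against 12127, 8994 and 12585 in resting NK cells (3.36-fold, adjusted p = 0.000301). Neither had overlapping groups. Atic, which closes the ring, had 9277, 7874 and 8424 in IL-15 NK cells and 1522, 1907 and 2741 in resting NK cells (4.26-fold, adjusted p = 0.000219), while its other probe set did not pass (0.82, adjusted p = 0.0777). Adsl, which serves both this chain and the step to AMP, had 2869, 3076 and 2596 in IL-15 NK cells and 1536, 1185 and 791 in resting NK cells (2.51-fold, adjusted p = 0.0063, or 0.054 with no filter on dim genes).

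In the branch to GMP, Gmps, the last enzyme, measured 12569, 10733 and 14061 in IL-15 NK cells, against 4559, 4962 and 4000.2 in resting NK cells (2.76-fold, adjusted p = 0.000372). Its other probe sets, fitted singly, gave 0.39 and -0.42 and did not pass, and the mean of all 3 did not pass either (0.48, adjusted p = 0.0647). Impdh1, the constitutive isoform of the rate-limiting step, had 3397, 3053 and 4012 in IL-15 NK cells and 2903, 1829.8 and 2791 in resting NK cells. The groups did not overlap, but the difference of 0.50 ± 0.24 did not pass (adjusted p = 0.16).

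All 3 salvage enzymes rose. Adk, which phosphorylates adenosine, was at 6208, 5075 and 5534 in IL-15 NK cells against 1112, 574 and 1134 in resting NK cells (6.22-fold, log2 difference 2.64 ± 0.29, adjusted p = 0.000188). Hprt, which recovers hypoxanthine and guanine, had 40112, 29979 and 36004 in IL-15 NK cells and 16534, 11879.5 and 13792 in resting NK cells (2.52-fold, adjusted p = 0.000795). Aprt, which recovers adenine, had 13909, 14568 and 14116 in IL-15 NK cells and 4742, 5314 and 4161 in resting NK cells (3.01-fold, adjusted p = 0.000157).

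The nucleoside diphosphate kinases pass phosphate between the triphosphate pools, and their genes are neighbours on chromosome 11. Nme1 measured 19992, 20208 and 24607 in IL-15 NK cells, against 4669.7, 7572 and 3935 in resting NK cells (4.15-fold, adjusted p = 0.000276). Nme2 measured 75860.1, 68742 and 68143 in IL-15 NK cells, against 29937, 65158 and 30552 in resting NK cells (1.81-fold, adjusted p = 0.0465). One resting array, replicate 2, thus reached nearly the IL-15 level for Nme2. Without it the log2 difference was 1.23 (adjusted p = 0.000283). The call was lost without IL-15 NK replicate 1 (0.125), IL-15 NK replicate 2 (0.0961), IL-15 NK replicate 3 (0.103), resting NK replicate 1 (0.146) or resting NK replicate 3 (0.128). These paralogs are close in sequence, and how far their probes tell them apart was not tested.

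The folate enzymes all rose, 5 of 5, with log2 differences from 1.29 to 2.70 and a median of 2.33. Serine hydroxymethyltransferase, which moves a carbon from serine to folate, exists in the cytosol (Shmt1) and in mitochondria (Shmt2). Shmt1 had 2940.5, 3058 and 2810.2 in IL-15 NK cells and 781, 477 and 456 in resting NK cells (5.3-fold, adjusted p = 0.00026), and all 4 of its probe sets were called higher. Shmt2 had 6332, 9870.4 and 9540.0 in IL-15 NK cells and 1990.5, 2070.2 and 1558 in resting NK cells (4.53-fold, adjusted p = 0.000152). Of the other probe sets of Shmt2, those at 2.215 and 1.22 were called higher and that at 0.84 did not pass (adjusted p = 0.113). On their brightest probe sets the cytosolic and the mitochondrial forms were thus both raised.

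Mthfd1, the cytosolic enzyme with 3 activities that interconverts the folate carriers, had 31726, 21231 and 26029 in IL-15 NK cells and 4525, 6446 and 4723 in resting NK cells (5.03-fold, adjusted p = 6.1e-05). In mitochondria the same steps fall to Mthfd2, an enzyme known from embryos, tumours and activated lymphocytes, and Mthfd1l, which releases formate. Mthfd2 had 11882, 4915 and 8148 in IL-15 NK cells and 1268, 1339 and 1020.4 in resting NK cells (6.5-fold, adjusted p = 0.000219). Mthfd1l had 11901, 8894 and 9398 in IL-15 NK cells and 4599, 5254 and 2827 in resting NK cells (2.44-fold, adjusted p = 0.00398, or 0.063 with no filter on dim genes). The IL-15 NK arrays of Mthfd2 spread the most of these, with replicate 1 the highest and replicate 2 the lowest, yet all lay above every resting array.

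Serine itself is made from a glycolytic intermediate by Phgdh, Psat1 and Psph in turn. Psat1, the aminotransferase, rose 8.31-fold, with 14129.6, 10928 and 14619 in IL-15 NK cells and 1436, 1936 and 1414 in resting NK cells (log2 difference 3.06 ± 0.21, adjusted p = 1.55e-05). Phgdh, the first enzyme, had 23152, 16606 and 19851 in IL-15 NK cells, against 9913, 3414 and 13294 in resting NK cells (2.57-fold, adjusted p = 0.0337). Its resting arrays spread widely, with replicate 2 the lowest, and the call was lost without IL-15 NK replicate 1 (adjusted p = 0.105), IL-15 NK replicate 2 (0.0599) or IL-15 NK replicate 3 (0.0853). The other 3 probe sets of Phgdh were nevertheless all called higher, at 1.57 to 2.73. Psph, the last enzyme, did not pass, with 2550.4, 2807 and 1853 in IL-15 NK cells overlapping 2091, 2084 and 1696 in resting NK cells (log2 difference 0.28 ± 0.24, adjusted p = 0.428).

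**Figure D3:**
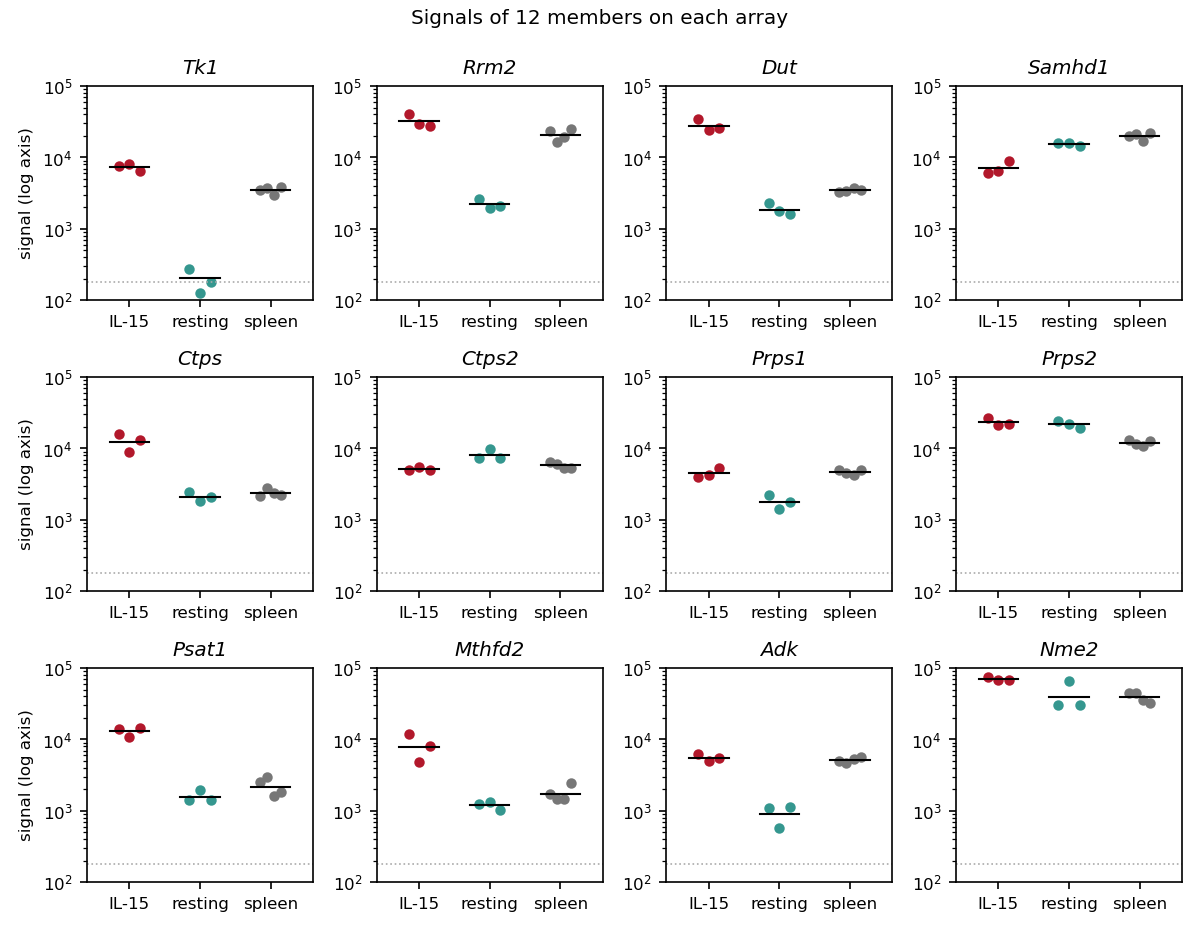
Signals of 12 enzymes on each array (log axis, scaled array units), with points for arrays, a bar for the group's geometric mean and a dotted line at the floor. Tk1, Rrm2 and Adk are high in IL-15 NK cells and splenocytes and low in resting NK cells, Dut, Ctps, Psat1 and Mthfd2 are high in IL-15 NK cells alone, Samhd1 is lowest in IL-15 NK cells, and Prps2 overlaps between the NK groups.

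Several enzymes come as paralog pairs, and the change within each array was compared between the members of 5 pairs by an exact permutation test over the 3 and 3 arrays, which cannot give a 2-sided p below 0.1. The Ctps to Ctps2 log2 ratio was 3.19 higher in IL-15 NK cells than in resting ones. The Prps1 to Prps2 ratio was higher by 1.23, the Nme1 to Nme2 ratio by 1.19 and the Mthfd1 to Mthfd1l ratio by 1.04. In these 4 pairs the IL-15 NK and resting NK arrays did not overlap and the exact p was 0.1, the smallest possible (0.125 after adjustment over the 5 pairs). The Shmt1 to Shmt2 ratio differed by 0.23 with overlapping arrays (exact p = 0.4, adjusted p = 0.4). All ratios used the brightest probe set of each gene. A dimmer probe set of Prps2 rose by 1.29, beside 1.34 for Prps1, so the change of the Prps1 to Prps2 ratio depended on the probe set read.

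Some technical measures also differed between the groups. The ratio of 3′ to 5′ probe sets of Gapdh, which grows as RNA or its amplified copy shortens, was 2.90 to 3.81 on IL-15 NK arrays and 5.88 to 9.54 on resting NK arrays, against 1.004 to 1.39 on splenocyte chips. The same ratio of Actb was 1.28 to 1.49 on IL-15 NK arrays, 2.27 to 6.51 on resting NK arrays and 1.34 to 1.59 on splenocyte chips. Resting replicate 2 had the highest ratio for both genes (9.54 and 6.51). The 7 B cell markers summed to 895 to 1385 on IL-15 NK arrays, with 1 to 3 of them above the floor. On resting NK arrays they summed to 22021, 22968 and 1593, with 2 to 7 above the floor, and on splenocyte chips to 182022 to 219834. With resting NK arrays 1 and 2, which held most of that signal, left out, 30 of the 37 enzymes were called (29 higher and 1 lower), and Ctps2 and Phgdh did not pass. That fit sets the IL-15 NK arrays against resting array 3 alone, which is assumed to vary like the other groups and had the highest macrophage and monocyte marker sum of the resting arrays (27065). NK markers summed to 333455 to 374912 on IL-15 NK arrays and 448168 to 569083 on resting NK arrays, all well above 45536 to 63912 on splenocyte chips. The 8 T cell markers summed to 899 to 1649 on IL-15 NK arrays and 1011 to 3216 on resting NK arrays, and the 6 neutrophil markers to 594 to 853 and 1237 to 3686 on the same arrays. One erythroid gene, Hemgn, was also higher in IL-15 NK cells, at 13437, 5205 and 10530.2 against 561, 598 and 479 in resting NK cells, and the 4 other erythroid markers were not above the floor on enough arrays to be tested. The part of RNA quality and of these cell types in the results was not tested.

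Each call of IL-15 NK against resting NK cells rested on the brightest probe set, and many could be set beside other probe sets of the gene. Of the 32 called members, 23 had other tested probe sets, and for 15 of them all of these made the same call. Of 41 other probe sets, 32 had the same call and 0 had the opposite one. The disagreements were in Dut, Atic and Gmps, whose dimmer probe sets did not pass, and in Dck, Ctps2, Paics, Rrm1 and Shmt2. In these a dimmer probe set that did not pass gave 0.61 for Dck, -0.73 for Ctps2, 0.88 for Paics, 0.38 for Rrm1 and 0.84 for Shmt2.

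**Figure D4:**
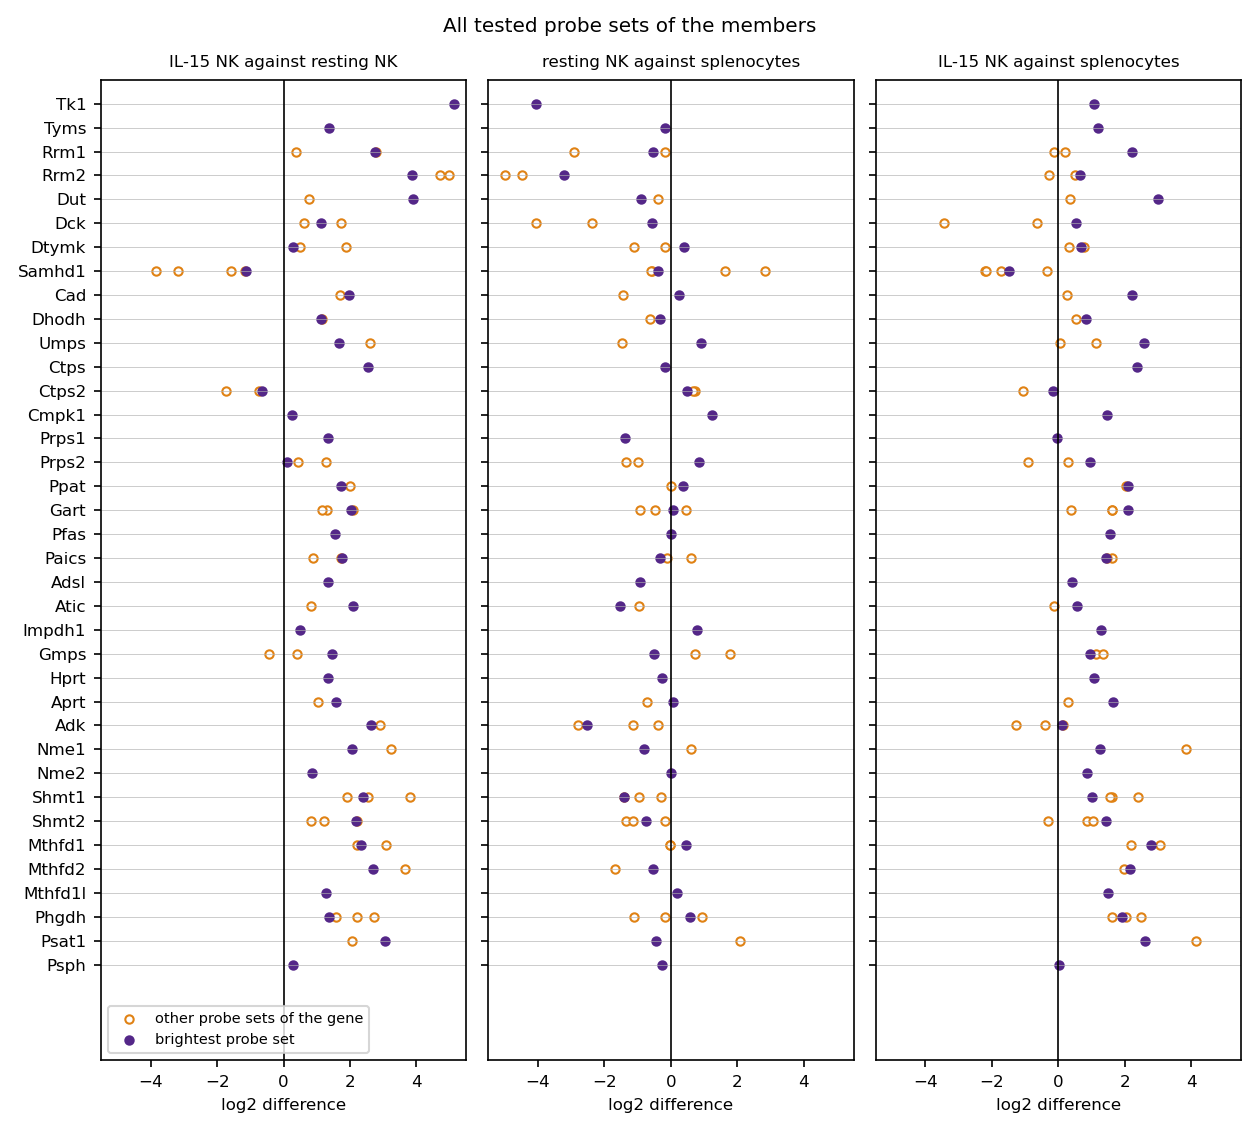
Log2 differences of every tested probe set of each enzyme in the 3 comparisons (panels), with the brightest probe set, used in the text, filled and the others open. In the left panel nearly all probe sets lie on the same side of 0, while in the panels against splenocytes those of Dck, Umps, Prps2, Psat1 and Rrm1 spread over several log2 units.

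Bulk splenocytes gave a level for mixed spleen cells against which each NK state was set. On these chips erythroid markers summed to 150369 to 184544, neutrophil markers to 125700 to 230737 and T cell markers to 62814.5 to 78282. The shares of cell types are not given, and their part in these comparisons was not tested. NK samples had been amplified by a 2-cycle and splenocytes by a 1-cycle procedure, so cell type and amplification cannot be told apart in what follows. IL-15 NK cells were higher than splenocytes for 27 of the 37 enzymes and lower for 1, where 20.8% of 12465 genes tested were called higher and 23.5% were called lower. The median difference of the 37 was 1.25, beside -0.10 over all genes tested. Resting NK cells were higher than splenocytes for 3 and lower for 11, where 17.1% of 12938 genes were called higher and 21.5% were called lower. Their median difference was -0.27, beside -0.06 over all genes. Both comparisons share the splenocyte chips, and they are given side by side as separate values.

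Among the enzymes lower in resting NK cells than in splenocytes were those of DNA precursor synthesis, Tk1 and Rrm2, and the salvage kinase Adk. Tk1 was at least 16.7-fold lower in resting NK cells than in splenocytes, which had 3459, 3717, 2995 and 3833 (log2 difference -4.06 ± 0.25, adjusted p = 1.45e-05), and in IL-15 NK cells it was 2.1-fold higher than there (adjusted p = 0.00953). Rrm2 was 9.31-fold lower in resting NK cells than in splenocytes, which had 23121, 16600.4, 19301 and 24768 (adjusted p = 2.01e-05). In IL-15 NK cells Rrm2 was 1.56-fold higher than in splenocytes (adjusted p = 0.0445), a call that did not pass without IL-15 NK replicates 1 (0.115) or 2 (0.0595) or without splenocyte chips 1 (0.0546), 2 (0.0856) or 3 (0.0696). Dck and Rrm1 did not pass in resting NK cells on their brightest probe sets (-0.57 and -0.55), but Dck was called lower on both others (-4.07 and -2.38) and Rrm1 on one other (-2.93). With the mean of all probe sets, both were called lower, Dck at -2.34 (adjusted p = 5.28e-05) and Rrm1 at -1.21 (adjusted p = 0.00454), and Adk was at -1.19 (adjusted p = 0.000516). Of the 7 dividing-cell markers, all were lower in resting NK cells than in splenocytes, while in IL-15 NK cells 1 was higher, 1 was lower and 5 did not pass, and their part in these differences was not tested.

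Adk was 5.74-fold lower in resting NK cells than in splenocytes, whose chips read 4999, 4650.0, 5259 and 5757 (adjusted p = 0.00035). In IL-15 NK cells Adk differed from splenocytes by 0.12 ± 0.30 and did not pass (adjusted p = 0.781). Prps1 followed the same course, at -1.40 ± 0.22 in resting NK cells (adjusted p = 0.00153) and -0.05 ± 0.22 in IL-15 NK cells (adjusted p = 0.87), both relative to splenocytes at 5001, 4517, 4210.5 and 5034. For Atic the differences from splenocytes, which had 5954, 5750.2, 5450.2 and 6006, were -1.54 ± 0.24 in resting NK cells (adjusted p = 0.00138) and 0.56 ± 0.24 in IL-15 NK cells (adjusted p = 0.0908). These 3 enzymes were thus below the level of bulk spleen in resting NK cells and did not pass against it in IL-15 NK cells.

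Of the other 6 enzymes lower in resting NK cells than in splenocytes, Shmt1 (-1.40 ± 0.28, adjusted p = 0.00475) and Dut (-0.90 ± 0.21, adjusted p = 0.0105) passed with any single array left out. Adsl (-0.93), Nme1 (-0.80), Shmt2 (-0.74) and Gmps (-0.50) passed with adjusted p between 0.0353 and 0.0453 over all arrays. Adsl lost the call without resting replicates 2 or 3 or splenocyte chips 1, 2 or 3 (adjusted p from 0.0577 to 0.0993), and Nme1 lost it without resting replicates 1 or 3 or chips 1 or 2 (0.0579 to 0.108). Shmt2 lost it without resting replicates 1 or 3 or chips 2, 3 or 4 (0.0564 to 0.0841), and Gmps without resting replicates 1 or 3 or chips 1, 2 or 4 (0.0628 to 0.104). Another probe set of Gmps was called higher at 1.77, and quantile normalization, which chose another probe set of Nme1, called Nme1 higher (0.61, adjusted p = 0.0435), while the mean of its probe sets did not pass (adjusted p = 0.782). No direction against splenocytes is therefore given for Gmps or Nme1 in resting cells.

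Other enzymes passed the splenic level. Dut was 2.99 ± 0.21 higher in IL-15 NK cells than in splenocytes on the log2 scale (adjusted p = 2.51e-05), and splenocytes had 3288, 3388, 3785 and 3515. Mthfd1 was 6.9-fold higher than in splenocytes, which had 4816, 4208, 2906 and 3421 (adjusted p = 5.09e-05). Psat1 was 6.03-fold higher than in splenocytes at 2502, 3009, 1604 and 1850.1 (adjusted p = 9.2e-05). None of the IL-15 NK arrays of these 3 overlapped the splenocyte chips. Ctps was 5.18-fold and Mthfd2 4.46-fold higher in IL-15 NK cells than in splenocytes, where resting NK cells did not pass for either (adjusted p = 0.634 and 0.264). For the other enzymes called higher in IL-15 NK cells, the log2 differences from splenocytes lay between 0.65 for Rrm2 and 2.58 for Umps. The call for Dhodh, at 0.82, was lost without IL-15 NK replicate 1 (adjusted p = 0.0593), 2 (0.0782) or 3 (0.0575). Among the enzymes called higher, other probe sets of Dhodh (0.52), Umps (0.04 and 1.13), Cad (0.26), Rrm1 (0.21 and -0.14), Rrm2 (-0.29 and 0.50), Dut (0.36), Gart (0.37), Shmt2 (-0.32), Aprt (0.30) and Prps2 (0.29) did not pass, and one of Prps2 was called lower (-0.93). Dck, Dtymk, Ctps2, Prps1, Adsl, Atic, Adk, Nme2 and Psph did not pass on their brightest probe sets, with differences between -0.16 and 0.85. Other probe sets were called lower for Dck (-3.46, adjusted p = 6.5e-05) and Adk (-1.26, adjusted p = 0.0014), and higher for Dtymk (0.77, adjusted p = 0.0277).

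Umps, Cmpk1 and Prps2 were the 3 enzymes higher in resting NK cells than in splenocytes. Cmpk1 was 2.33-fold higher in resting NK cells than in splenocytes at 11332, 13996, 8740.1 and 8116 (adjusted p = 0.00222), and 2.78-fold higher in IL-15 NK cells (adjusted p = 0.000699). Both NK groups were thus above spleen for Cmpk1. Prps2 was 1.8-fold higher in resting NK cells on its brightest probe set (adjusted p = 0.00374), but its other probe sets were both called lower (adjusted p = 0.0341 and 0.0068). Umps was 1.87-fold higher (adjusted p = 0.0281), while its other tested probe set was called lower at -1.46, and the call was lost without resting NK replicate 3 (adjusted p = 0.0718). No direction against splenocytes is therefore given for Prps2 or Umps in resting cells.

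Samhd1 was the single enzyme lower in IL-15 NK cells than in splenocytes, which had 19762, 21327, 17163 and 22238 (log2 difference -1.50 ± 0.19, adjusted p = 0.000408). In resting NK cells its difference from splenocytes was -0.37 ± 0.19 and did not pass (adjusted p = 0.152). Macrophage and monocyte markers summed to 187807 to 221018 on the splenocyte chips, against 1166 to 1864 on IL-15 NK arrays.

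**Figure D5:**
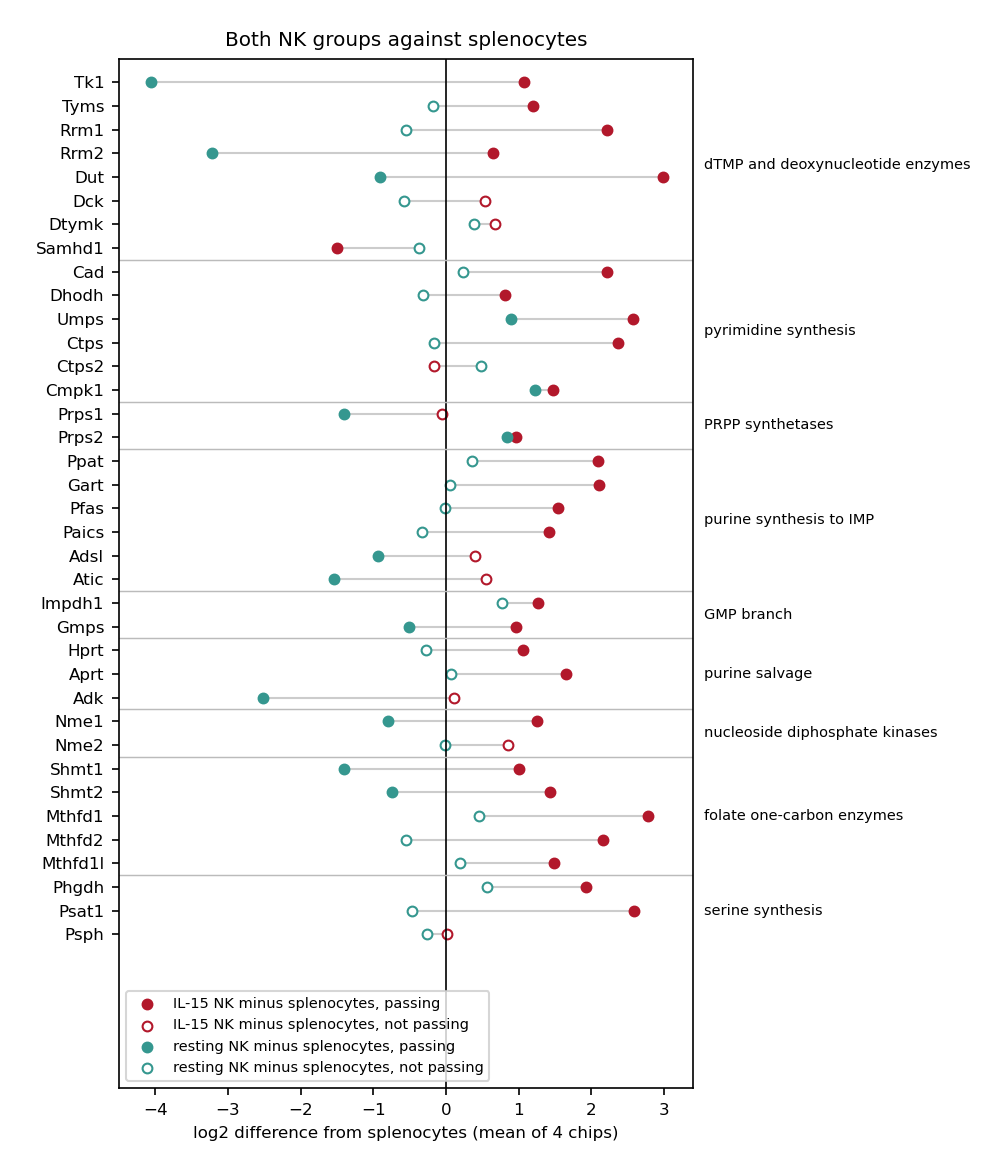
Log2 difference of each enzyme from splenocytes for IL-15 NK cells (red) and resting NK cells (green), by role, filled where the array-wide fit passed and open where it did not. The red point lies right of the green one for all enzymes but Samhd1 and Ctps2, and both colours share the same splenocyte chips as their reference.

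The comparisons with splenocytes depended more on the probe set and the array. Of 19 other tested probe sets of the members called in resting NK cells against splenocytes, 7 had the same call and 4 the opposite one, and of the 10 members with another tested probe set, 1 had the same call on all of them. Without resting NK replicate 3, 9 members were called in place of 14. Besides Dck and Rrm1, other probe sets of enzymes that did not pass in resting NK cells were called lower for Aprt (-0.73), Cad (-1.45), Dtymk (-1.11), Gart (-0.94) and Mthfd2 (-1.68), higher for Ctps2 (0.72) and Psat1 (2.09), and in both directions for Phgdh (-1.10 and 0.93). The calls for Tk1, Rrm2, Dut, Adk, Atic, Prps1, Shmt1 and Cmpk1 passed under each of 16 other settings, which changed the floor, the scaling, the choice of probe set or the error model, or left out 1 array. Fitted singly, some other probe sets of Dut (-0.40), Atic (-0.96), Shmt1 (-0.31 and -0.97) and Adk (-0.40) nevertheless did not pass. Against splenocytes, 22 of 38 other probe sets of the members called in IL-15 NK cells had the same call and 1 the opposite one, and of the 20 members with another tested probe set, 9 had the same call on all of them.

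Around these enzymes lie other genes of the same metabolism, taken from lists made by hand. Of 30 other genes of nucleotide synthesis, salvage and phosphorylation, 23 were tested in IL-15 NK against resting NK cells, of which 7 were higher, 3 were lower and 13 did not pass (median 0.37). Nudt5, which hydrolyses nucleoside diphosphate sugars, was 3.98-fold higher, and Glrx, a glutaredoxin that can feed electrons to ribonucleotide reductase, was 3.28-fold higher. Dctd, which makes dUMP from dCMP, was at least 3.34-fold higher, with 2 of 3 resting arrays above the floor. Cmpk2, a mitochondrial nucleotide kinase known as an interferon-induced gene, fell to 247, 131 and 175 in IL-15 NK cells, against 783, 1024 and 1134 in resting NK cells, so that it was at least 4.85-fold lower (adjusted p = 0.000404). Relatives of Rrm2 and Tk1 were also lower, Rrm2b by 1.87-fold (adjusted p = 0.00686) and Tk2 by 2.1-fold (adjusted p = 0.0269).

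Among 25 genes of nucleotide breakdown, 14 were tested, with 4 higher, 1 lower and 9 not passing (median 0.48). Xdh, the xanthine oxidoreductase that makes uric acid in purine breakdown, fell to 481, 1071 and 1183 in IL-15 NK cells, against 3846, 5003 and 3856 in resting NK cells (4.95-fold lower, log2 difference -2.31 ± 0.34, adjusted p = 0.000977). The highest IL-15 NK array was thus far below the lowest resting array. Dctpp1, which removes dCTP and its modified forms, was 4.82-fold higher (adjusted p = 0.000274), Nt5c2, a cytosolic 5′-nucleotidase, was 2.15-fold higher (adjusted p = 0.0115) and Entpd5 was 1.93-fold higher (adjusted p = 0.0192).

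Of 35 other genes of folate, glycine, methionine and transsulfuration metabolism, 20 were tested, with 6 higher, 0 lower and 14 not passing (median 0.39). Ahcy, which clears the product of methylation reactions, had 23494, 19212 and 23267 in IL-15 NK cells, against 3911, 3889.7 and 3089 in resting NK cells (6.07-fold, adjusted p = 1.55e-05). Gcsh, the carrier protein of the glycine cleavage system, was 4.47-fold higher (adjusted p = 0.00069), the folate transporter Slc19a1 was 2.79-fold higher (adjusted p = 0.00792) and Mtap, which recovers adenine and methionine, was 2.74-fold higher (adjusted p = 0.000433). The share called higher in each of these 3 wider lists was between the array-wide background and that of the 37 enzymes.

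Of 20 regulators that textbooks link to these enzymes, 19 were tested, with 6 higher, 1 lower and 12 not passing (median 0.57). Of all 11433 genes tested, 14.2% were called higher and 12.1% were called lower. Differences were negative for 5 of the 19, among them Ddit3, at 827, 1106.5 and 726 in IL-15 NK cells, against 1599, 1326 and 2726 in resting NK cells. The regulators described next had the largest differences, and all of them rose. E2F factors drive S-phase genes, and E2f8, a repressing member, had 9012, 8008 and 6293 in IL-15 NK cells, against 114, 211 and 697 in resting NK cells (at least 25.8-fold, adjusted p = 8.66e-05). E2f1, an activating member, had 1948, 1572 and 1835 in IL-15 NK cells, against 516, 368 and 209.7 in resting NK cells (5.21-fold, adjusted p = 0.000967), and E2f3 was 3.56-fold higher (adjusted p = 0.000564). Mycn, a relative of Myc that binds the same E-box, had 2591, 1738 and 2276 in IL-15 NK cells, against 309, 205 and 54.4 in resting NK cells (at least 9.66-fold, adjusted p = 8e-05). For both genes given as at least a fold, 2 of 3 resting arrays lay above the floor.

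Since most members moved together, their promoters were searched for the short motifs of such factors in RefSeq sequences of build GRCm38.p6, from 250 bases before to 50 bases after each annotated start. Of the 38 genes, 36 had 44 promoters in this collection, and Dhodh and Pfas had none. Both strands were searched. The E-box CACGTG, the site of Myc family and related factors, was in the promoters of 6 of the 36 genes (Atic, Dtymk, Impdh2, Nme1, Paics and Tyms), or 16.7%, beside 8.09% of 27025 genes. The CCAAT box (CCAAT), bound by NF-Y, was in 16 of 36, or 44.4%, beside 41.1% of all genes. The E2F letters TTTCCCGC or TTTGGCGC were in 2 genes (Ppat and Prps2), or 5.56%, beside 1.80%, and the ATF4 element TGATGNAA was in 1 gene (Prps1), or 2.78%, beside 4.51%. A match is a description of the letters and not a site of binding.

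The stretches of 160 bases that end at the base before the start are shown for 4 enzymes with a match and for Tk1, so that the matches can be seen in place. They run 5′ to 3′ on the strand of the gene, with matches on either strand in capitals. Those of Atic (chr1:71556996-71557155, plus strand) and Nme1 (chr11:93968273-93968432, minus strand) hold an E-box close to the start, at positions -7 and -18. Those of Psat1 (chr19:15925060-15925219, minus strand) and Mthfd2 (chr6:83317605-83317764, minus strand) hold 2 and 3 CCAAT boxes. That of Tk1 (chr11:117826015-117826174, minus strand) holds none of the motifs searched. For Tk1 and Mthfd2 the start in the RefSeq promoter table is not the outermost start of the gene in the RefSeq gene table.
Atic: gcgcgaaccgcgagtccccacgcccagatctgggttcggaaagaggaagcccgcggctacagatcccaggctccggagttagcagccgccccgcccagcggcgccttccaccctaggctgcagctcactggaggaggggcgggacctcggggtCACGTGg
Nme1: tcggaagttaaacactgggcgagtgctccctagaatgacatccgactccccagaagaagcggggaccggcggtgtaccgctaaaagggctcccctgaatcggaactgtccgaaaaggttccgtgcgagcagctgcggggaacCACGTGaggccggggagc
Psat1: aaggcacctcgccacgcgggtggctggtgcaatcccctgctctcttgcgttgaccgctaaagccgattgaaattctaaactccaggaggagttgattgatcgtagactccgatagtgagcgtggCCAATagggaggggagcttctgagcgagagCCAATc
Mthfd2: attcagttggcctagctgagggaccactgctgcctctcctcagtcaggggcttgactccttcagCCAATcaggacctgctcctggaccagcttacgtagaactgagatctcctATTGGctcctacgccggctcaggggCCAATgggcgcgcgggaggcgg
Tk1: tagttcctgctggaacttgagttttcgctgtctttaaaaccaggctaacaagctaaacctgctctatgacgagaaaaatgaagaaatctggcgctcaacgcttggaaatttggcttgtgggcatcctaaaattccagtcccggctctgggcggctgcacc

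The RefSeq annotation also shows that Ppat and Paics lie head to head on chromosome 5, on opposite strands, with 277 bases of overlap between their starts. On their brightest probe sets the differences, IL-15 NK minus resting NK, were nearly equal, 1.74 and 1.75. Other tested probe sets gave 2.01 for Ppat, and 1.73 and 0.88 for Paics, of which the last did not pass (adjusted p = 0.0628). The members lie on 16 chromosomes, with 4 of them, Ctps2, Prps1, Prps2 and Hprt, on the X chromosome. Among the 3 IL-15 NK arrays, replicate 1 was the highest for 17 of the 37 enzymes, and replicate 2 was the lowest for 19, with median deviations from the group mean of 0.11 and -0.13 on the log2 scale. These shifts within a group were small beside the median difference of 1.59 between the groups.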

How the data were processed

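Total RNA was hybridised to 1-colour MOE430_2 arrays. The deposited table holds linear intensity values, 1 for each probe set on each array. Per the submitters' processing notes the authors used GCOS 1.4, and how probes were summarised is not given in the sources used here. Every array had the same trimmed mean (1500), so no further scaling was applied. Of 45101 probe sets, GEO's platform table gave 34945 to 1 gene, 932 to several and 9160 to none, and 64 controls were left out. Of the 38 symbols, 37 matched RefSeq names of GRCm38.p6 and have a probe set of their own. The 37 enzymes had 94 probe sets.

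Signals below 179.8 (the median over arrays of the 40th percentile) were raised to it before log2. Genes with fewer than 3 arrays above it in a comparison were not tested. Tests were 2-sided and used lmFit and eBayes of limma 3.58.1 (R 4.3.3), letting the variance follow the signal level. IL-15 NK and resting NK were compared over 6 arrays without a replicate block. For splenocytes all 3 groups shared 1 variance, the 4 chips were averaged in pairs under each of 3 possible pairings, and the largest p was kept. With a splenocyte chip left out, the difference came from the first way of averaging, in which 1 chip weighed as much as the others together. Folds are ratios of geometric means, and lower bounds where an array of the dimmer group was at the floor. Single probe sets were fitted over all probe sets, so their adjusted p differs slightly. The number of arrays limits the precision.

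The members, lists, roles and alternatives were chosen with earlier results of these data known. All members are named, and from each wider list up to 4 genes past the threshold with the largest differences. Rrm2b, Tk2 and Ddit3 are named besides, for their falls. Impdh2 and protein sequences are not analysed here. The scripts were tested on simulated data.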

Additional observations from a re-analysis of the deposited data

Results flagged for a closer look

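Among the 37 enzymes, the 4 splenocyte chips were checked for a chip far from the other 3, and chance alone marks about 1 in 20 such groups. In 2 genes a chip stood apart. For Dck, chip 2 read 14835 where the other chips read 22119, 21618 and 21906, and its gap to the nearest chip was 0.943 of the whole range. For Gart, chip 3 read 2459.9 where the others read 2946, 2890.4 and 2859, with a gap of 0.835 of the range. Without chip 2, Dck was called lower in resting NK cells than in splenocytes (log2 difference -0.72, adjusted p = 0.0467). Without chip 3, Gart differed by -0.003 between resting NK cells and splenocytes and did not pass. Both differences weigh 1 of the remaining chips as much as the others together.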

How the results depend on the processing

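Over the alternatives, 24 to 32 of the 37 enzymes were called in IL-15 NK against resting NK cells, and none changed direction. Calls were lost for 8 members, named in the report, and 24 of the 32 passed under all 15 other settings, aside from the 2 added later. With no intensity trend Nme2 (adjusted p = 0.0776), Phgdh (0.0582) and Ctps2 (0.0516) were lost. Leaving out 1 array gave 29 to 31 (9 to 15 in resting NK against splenocytes, 26 to 28 in IL-15 NK against splenocytes). Over all genes, calls in IL-15 NK against resting NK numbered 3003 as reported, 1646 with no filter on dim genes and 1963 without IL-15 NK replicate 3. Resting NK against splenocytes, with 14 members called, gave 9 with no filter. Counting a member only where all its tested probe sets had the same call (members with 1 tested probe set count too), an alternative chosen after seeing the data as was leaving out resting arrays 1 and 2, gave 24, 5 and 17 members in the 3 comparisons in place of 32, 14 and 28. Quantile normalization moved the median of all genes from -0.06 to 0.05 in resting NK against splenocytes and from -0.10 to 0.11 in IL-15 NK against splenocytes, and gave 5 higher and 10 lower members in the first, in place of 3 and 11.

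The design text speaks of pairs of NK samples, but no label says what a replicate number shares. Deviations of same-numbered arrays correlated at 0.10, 0.28 and 0.07, and those of differently numbered arrays at -0.22 to 0.15. The highest of the latter joined resting replicate 3 and IL-15 replicate 1. These values do not settle whether the numbers mark pairs, and the main fit did not take them to do so. A replicate block gave 32 members called and 3421 genes over the whole array.

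Signs turned in the comparisons with splenocytes alone, and 6 of the turned values passed in the new direction. In resting NK against splenocytes, the mean of all probe sets turned Gmps (0.67, adjusted p = 0.015), Psat1 (0.81, adjusted p = 0.0156), Prps2 (-0.51), Umps (-0.16), Aprt (-0.33), Cad (-0.41), Dtymk (-0.30), Gart (-0.23), Paics (0.046) and Samhd1 (0.59). Leaving out probe sets marked as matching several transcripts turned Aprt (-0.73, adjusted p = 0.0314) and Cad (-1.45, adjusted p = 0.00671), and quantile normalization turned Nme1 (0.61, adjusted p = 0.0435), where it chose another probe set, Pfas (0.19) and Tyms (0.089). In IL-15 NK against splenocytes, the mean turned Dck (-1.18, adjusted p = 0.00128) and Adk (-0.28). Leaving out 1 array gave, for those it turned in resting NK against splenocytes, ranges of -0.08 to 0.16 for Aprt (-0.084 without splenocyte chip 4), -0.08 to 0.15 for Gart (-0.077 without resting replicate 2), -0.38 to 0.19 for Nme2, -0.17 to 0.23 for Pfas and -0.42 to 0.07 for Tyms (0.070 without splenocyte chip 1), and in IL-15 NK against splenocytes -0.17 to 0.03 for Prps1 (0.025 without IL-15 NK replicate 1) and -0.11 to 0.19 for Psph. The other turned values did not pass. Where a splenocyte chip was left out, 1 of the remaining chips weighed as much as the others together. The sign of a small difference, as for Tyms without chip 1, can depend on that weighting. The cause of these turns was not tested. Signals near the floor, as for Tk1 in resting NK cells, limit a fold to a bound.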
